A study of Mus musculus with 28 samples.

Results

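Injury- and fetal-linked epithelial genes, Sprr1a, Ly6d, Afp, Gpc3, Cd24a, and Tff3, formed the set followed here in mouse livers with steatohepatitis, as 6 of the 21935 genes in the count table. The genes were picked by name as genes that are low in healthy adult hepatocytes and are seen in injured or fetal liver epithelium. Sprr1a was also picked because it differed strongly between the drugs, so that its values are given as a description, without a test, and no member was tested between the drugs. All 6 passed the filter on low counts that left 12580 genes for testing, but Tff3 did so only with the 3 groups together. It did not pass when vehicle was filtered with either drug group alone. The genes are often called markers of hepatocyte injury and dedifferentiation, but the samples were whole liver, and the counts do not say which cells the RNA came from.

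The 28 mice were male B6.V-Lepob/JRj animals, which lack functional leptin, 5 weeks old on arrival and fed the AMLN diet (high in fat, fructose, and cholesterol) for 14 weeks. Then 10 mice received vehicle, 9 received OCA at 30 mg/kg, and 9 received INT-787 at 30 mg/kg by mouth once daily for 2 weeks with the diet continued, so that obesity, leptin deficiency, and diet were common to the 3 groups and there was no lean or chow-fed group. OCA (obeticholic acid) and INT-787 are agonists of the farnesoid X receptor (FXR), the nuclear receptor for bile acids. The comparisons ask whether each drug moved the 6 genes away from the levels in untreated disease and where the drugs differed at the same dose. Total counts ranged from 1009593 to 18342272 per mouse with vehicle, from 10990531 to 22421506 with OCA, and from 12513715 to 22128216 with INT-787. Vehicle replicate 6 had the lowest total. Vehicle replicate 5 stood apart in another way: 119 of 216 genes mostly covered by exons of a gene on the opposite strand reached 1 CPM (counts scaled to a common library size), against 83 to 92 in each other mouse. None of the 6 genes shares exon bases with another gene on either strand.

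When adult liver is damaged, epithelial cells can lower part of their mature program and express genes of fetal liver, of bile ducts, or of stratified epithelium. Alpha-fetoprotein (Afp) is the main serum protein of fetal liver and is silenced after birth, and glypican 3 (Gpc3) is a fetal cell-surface heparan sulfate proteoglycan; both return in liver cancer. Cd24a encodes a small glycoprotein on bile duct and progenitor cells, and also on immature B cells. Sprr1a encodes a small proline-rich protein that is cross-linked into the cornified envelope of skin and is a known injury gene in nerve and other tissues. Ly6d encodes a small membrane-anchored protein of stratified epithelium and early B cells, and Tff3 a secreted trefoil peptide of mucous epithelium that takes part in mucosal repair.

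The promoter sequences of Sprr1a and Afp are shown because Sprr1a held the widest difference between the groups and Afp is the classic fetal liver marker. RefSeq (GRCm38.p6) gave the 250 bases before the start of 3 of the 6 genes, Sprr1a, Afp, and Gpc3. Capitals mark matches to the AP-1 motif TGANTCA on either strand, to the HNF1 half-site GTTAAT on either strand, and to TATAAA on the gene's own strand.
Sprr1a, chr3:92485882-92486131, minus strand: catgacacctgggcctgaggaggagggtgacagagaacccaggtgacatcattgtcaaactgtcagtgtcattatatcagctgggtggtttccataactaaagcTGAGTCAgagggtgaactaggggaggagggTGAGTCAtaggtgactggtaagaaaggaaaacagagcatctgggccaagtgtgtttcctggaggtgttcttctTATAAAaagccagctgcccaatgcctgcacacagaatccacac
Afp, chr5:90490464-90490713, plus strand: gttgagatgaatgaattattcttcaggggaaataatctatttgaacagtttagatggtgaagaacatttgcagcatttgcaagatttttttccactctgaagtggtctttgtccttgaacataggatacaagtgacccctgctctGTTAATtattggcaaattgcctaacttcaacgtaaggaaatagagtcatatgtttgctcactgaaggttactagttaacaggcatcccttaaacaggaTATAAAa
The Sprr1a window held the AP-1 letters TGAGTCA at both -146 to -140 and -116 to -110 from the RefSeq start, and TATAAA at -43 to -38. Over 32851 promoter windows of this length, 6.75% held the AP-1 motif and 0.338% held it 2 or more times. The Afp window held GTTAAT, present in 6.43% of windows, at -105 to -100, and TATAAA, present in 7.59%, at -7 to -2. The RefSeq start of Afp lay 23 bases upstream of the gene start in GENCODE, and that of Sprr1a 14 bases downstream. No matches overlapped each other. The Gpc3 window held none of these letters and had a GC content of 71.6%, against 49.6% for Sprr1a and 36.0% for Afp. A match is a description of the letters and not a measured binding site.

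The 6 genes covered a wide range of levels. Per kilobase of exon, the mean level over the 28 mice was 245 ± 58.6 (SD) CPM for Ly6d, which was higher than 98.6% of the tested genes. Sprr1a followed at 28.8 ± 22.2 CPM per kilobase, Cd24a at 11.7 ± 4.52, Tff3 at 1.94 ± 1.93, Afp at 0.453 ± 0.263, and Gpc3 at 0.337 ± 0.164. Ly6d was above Sprr1a, and Cd24a above Tff3, in 28 of 28 mice. The order was less firm elsewhere, since Sprr1a was above Cd24a in 19 of 28 mice, Tff3 above Afp in 21, and Afp above Gpc3 in 17. Per length, Afp was higher than 12.2% of the tested genes and Gpc3 higher than 8.78%.

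**Figure D1:**
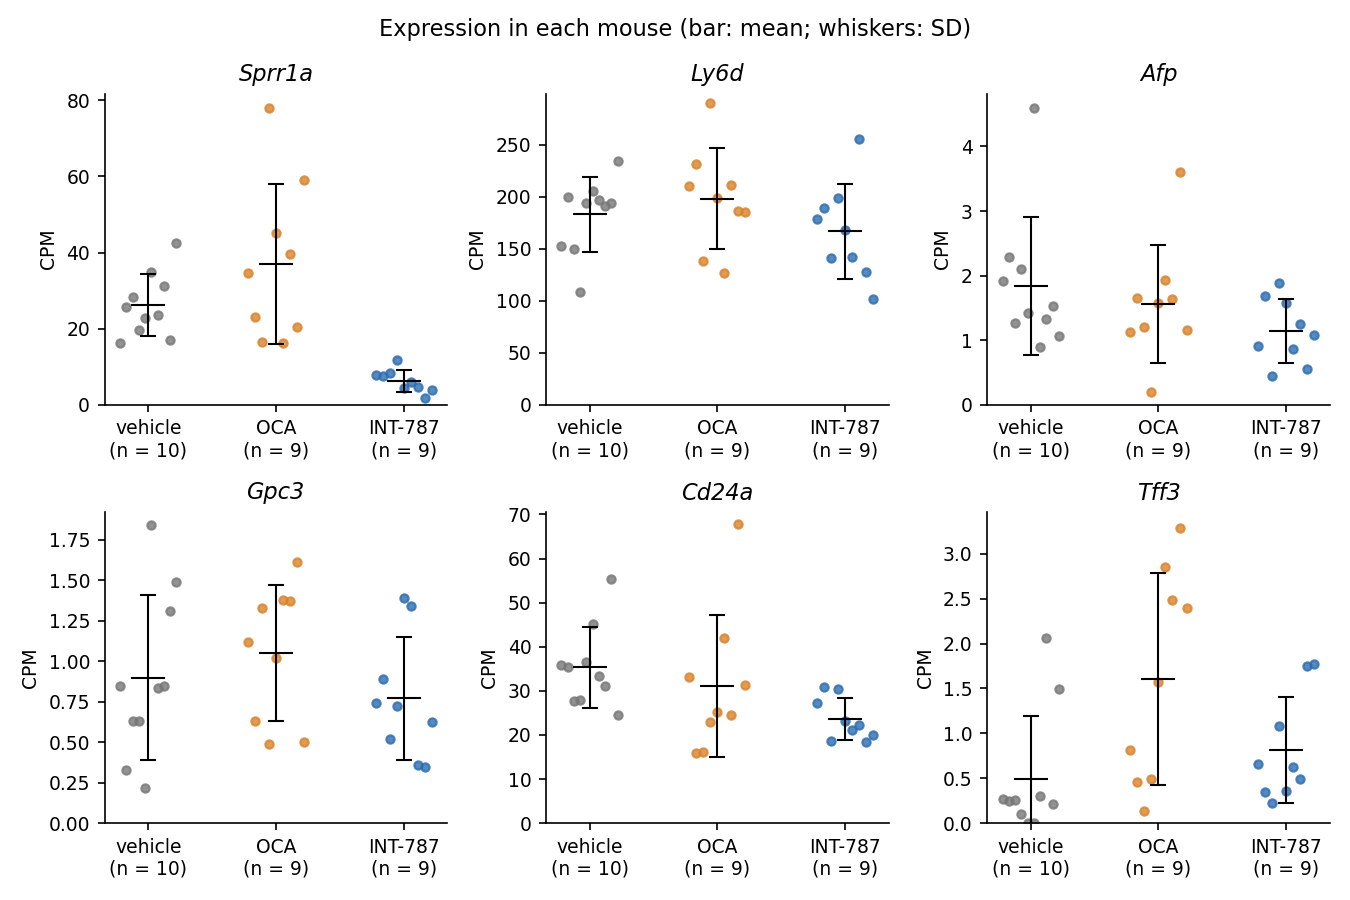
Expression (CPM, linear axes from 0) of the 6 genes in each mouse, with 1 point per mouse, bars at the mean, and whiskers of 1 SD (the lower whisker of Tff3 with vehicle is cut at 0). All 9 INT-787 mice lie between 1.68 and 11.7 CPM for Sprr1a, below the lowest vehicle and OCA mice at 16.3 CPM, whereas the groups overlap for the other 5 genes.

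Sprr1a (ENSMUSG00000050359, GRCm38 chr3:92483952-92485895, minus strand) was far lower with INT-787 than in either other group. The lowest, median, and highest mice had 16.3, 24.7, and 42.5 CPM with vehicle. With OCA they had 16.3, 34.5, and 78.0 CPM. With INT-787 they had 1.68, 5.98, and 11.7 CPM. Every INT-787 mouse was therefore below every vehicle mouse and every OCA mouse, whereas OCA mice lay on both sides of the vehicle median, 4 below and 5 above. The groups of INT-787 and vehicle were separated in this direction for 0.866% of tested genes, INT-787 and OCA for 0.310%, and INT-787 and both others for 0.127% (16 genes). These shares are given as the background and nothing is read from them, since Sprr1a was chosen for this pattern.

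The fitted level of Sprr1a was 76.1% lower with INT-787 than with vehicle (log2 fold change -2.06, SE 0.30, 95% interval -2.67 to -1.46) and 83.2% lower than with OCA (log2 fold change -2.58, SE 0.30, interval -3.19 to -1.96). With OCA it was 0.51 above vehicle on the log2 scale (SE 0.27, interval -0.04 to 1.07). The spread of Sprr1a between OCA mice was wide, with a coefficient of variation of 57.1%, against 31.5% with vehicle. Within sets of mice with neighbouring sample numbers in the labels, Sprr1a was lower with OCA than with vehicle in 4 of 8 sets. Over all alternatives the log2 fold change stayed between -2.23 and -1.94 for INT-787 against vehicle and between -2.74 and -2.36 against OCA.

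The Sprr genes next to Sprr1a were barely detected, whereas some other genes of the cornified envelope were well expressed. The cornified envelope list held 18 genes, of which 4 could be tested. Sprr1b, the closest relative, averaged 0.0105 CPM with vehicle, 0.0707 CPM with OCA, and 0.0055 CPM with INT-787, with 20 of 28 mice at 0 counts, and Sprr2a1 was at 0 in every mouse. Tgm1, the transglutaminase that cross-links the envelope in skin, fell with INT-787 (log2 fold change -1.28, SE 0.18, adjusted p = 2.8e-06) and with OCA (-0.81, SE 0.17, adjusted p = 0.0025). Tgm2, tissue transglutaminase, stood at 78.1 CPM per kilobase over all mice and also fell with both, by 0.48 and 0.52 on the log2 scale (adjusted p = 0.0012 and 0.0011). Ppl, the desmosomal linker periplakin, rose with both, by 1.22 with INT-787 (adjusted p = 1.4e-05) and 1.01 with OCA (adjusted p = 0.00043). None of the 4 tested genes, Evpl included, passed the test between the drugs, where Tgm1 had a log2 difference of -0.47 (edgeR adjusted p = 0.13).

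**Figure D2:**
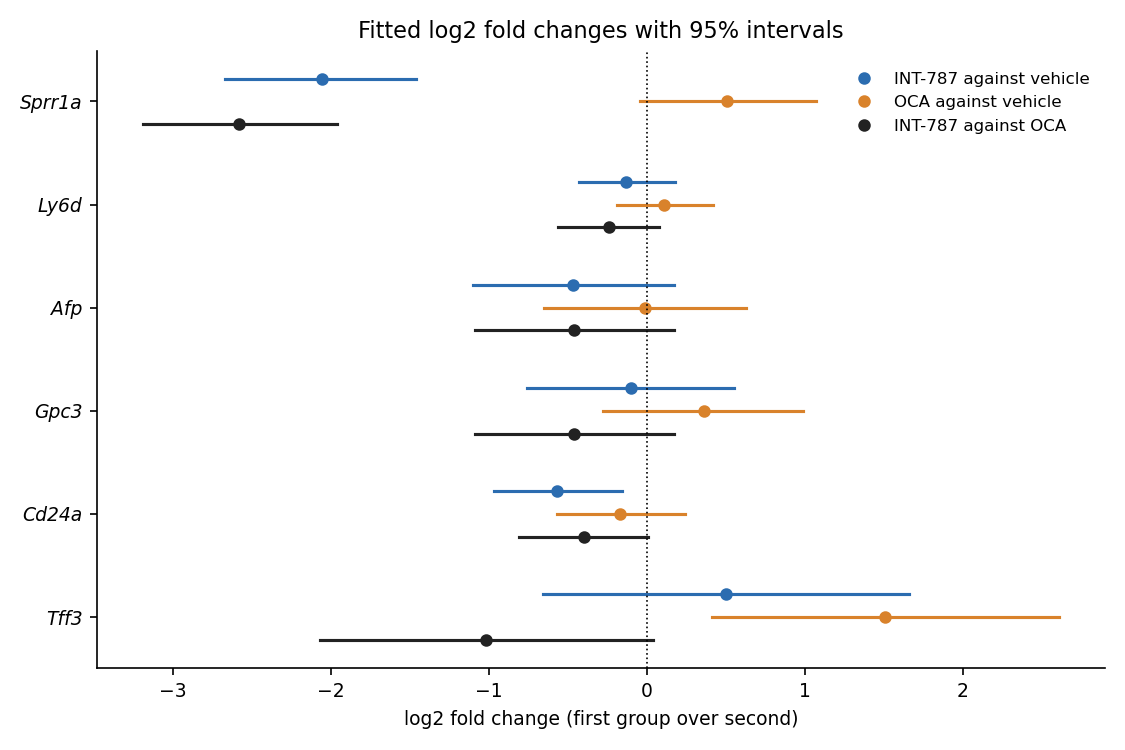
Fitted log2 fold changes (points) with 95% intervals (lines) of the 6 genes for each drug against vehicle and for the drugs against each other. The 2 Sprr1a contrasts with INT-787 lie at -2.06 and -2.58, the Cd24a interval against vehicle ends at -0.16, and most other intervals span 0.

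Cd24a (ENSMUSG00000047139, chr10:43578284-43584265, plus strand) fell with INT-787. The lowest, median, and highest mice had 24.5, 34.4, and 55.3 CPM with vehicle. They had 18.4, 22.2, and 30.8 CPM with INT-787. Of the 9 INT-787 mice, 9 were below the vehicle median and 6 below the lowest vehicle mouse, so that the groups overlapped only in part. The log2 fold change was -0.57 (SE 0.20, 95% interval -0.97 to -0.16, edgeR adjusted p = 0.043), a level 32.5% lower. This was the only call among the 5 members tested against vehicle, or 1 of 5, where 19.6% of all tested genes passed with INT-787 in either direction and 9.48% as lower, so the share called is close to the background. The call was near the threshold: it was lost without any 1 of vehicle replicates 1, 2, 5, 6, 7, or 9 or INT-787 replicates 3, 5, 6, 7, 8, or 9 (adjusted p of 0.054 to 0.11), and without both vehicle replicates 5 and 6 (-0.53, adjusted p = 0.088). Within sets of neighbouring sample numbers Cd24a was lower with INT-787 than with vehicle in 9 of 9.

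With OCA the lowest, median, and highest mice had 15.9, 25.2, and 67.9 CPM of Cd24a, and the group spanned the whole vehicle range. The log2 fold change against vehicle was -0.17 (SE 0.20, interval -0.57 to 0.24, adjusted p = 0.74). The highest value came from OCA replicate 8, in which Afp, Gpc3, and Tff3 were also the highest of the OCA group. Without that mouse, the OCA mean of Cd24a was 26.4 ± 8.83 CPM (n = 8) and the fold change against vehicle was -0.40 (adjusted p = 0.16). The difference between INT-787 and OCA was -0.40 (SE 0.20, interval -0.81 to 0.01) with that mouse and -0.17 without it.

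Cd24a moved beside markers of other liver cells. Of 9 cholangiocyte markers, which identify bile duct cells, 3 fell with INT-787: Cftr by 0.86, Cldn4 by 0.84, and Spp1 by 0.74 on the log2 scale (adjusted p = 0.013, 0.048, and 0.0021; named after their values were seen). The summed cholangiocyte markers ranged from 621.4 to 928.7 CPM with vehicle, from 558.3 to 1749 with OCA, and from 446.6 to 683.3 with INT-787, and none of the 9 was at 0 throughout. Most of this sum was Spp1, which other liver cells also express: without it the other 8 markers summed to 154 to 229 CPM with vehicle and 130.8 to 218.8 with INT-787, with medians of 177 and 167. Krt19 and Epcam, defining keratin and adhesion genes of ducts, had log2 fold changes of -0.36 and -0.31 (adjusted p = 0.28 and 0.30). The 6 B cell and plasmacytoid dendritic cell markers in the table summed to at most 7.44 CPM in any mouse, and of the 3 that could be tested Cd79b, part of the B cell receptor, fell with INT-787 by 0.86 (adjusted p = 0.0053). The 8 neutrophil markers summed to at most 12.9 CPM. Of 8 stellate cell and fibroblast markers 5 fell with INT-787, as did 4 of 8 macrophage, 3 of 9 tested dividing cell, and 2 of 6 endothelial markers. Over all tested genes 9.48% fell with INT-787. The marker lists were small, so nothing is read from these counts. OCA replicate 8 held the highest OCA sum in 7 of 11 marker lists: cholangiocyte (1749 CPM), stellate and fibroblast (3433), dividing cell (101.7), B cell and plasmacytoid dendritic cell (5.27), neutrophil (12.9), erythroid (506.4), and mesothelial (4.84). In whole liver, fewer cells of a type and less RNA per cell cannot be told apart, and the part of these markers in the Cd24a result was not tested.

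Genes that act with CD24 gave 3 calls with INT-787 among 9 tested, each lower, where 9.48% of all tested genes fell. With so few genes, nothing is read from this count. Selp, the P-selectin that binds CD24, fell by 0.76 on the log2 scale (adjusted p = 0.001), and Fgr, a Src-family kinase of myeloid cells, by 0.42 (adjusted p = 0.03). With OCA, Selp and Fgr had values of -0.52 and -0.13 (adjusted p = 0.052 and 0.69). Siglecg, the CD24 receptor of B cells, was too low to test.

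Tff3 (ENSMUSG00000024029, chr17:31125306-31129646, minus strand) was measured near the detection floor and showed its highest values with OCA. With vehicle the lowest, median, and highest mice had 0, 0.254, and 2.06 CPM, and 2 of 10 mice had no counts. These were replicates 5 and 6, where a count of 0 allows up to 0.319 and 2.97 CPM (3 counts of each library's raw total, counting error only). These limits are approximate beside the other values, which used scaled totals. With OCA they had 0.133, 1.57, and 3.29 CPM, with 8 of 9 mice above the vehicle median and 4 above the highest vehicle mouse. With INT-787 they had 0.224, 0.63, and 1.77 CPM, all within the vehicle range. The log2 fold change with OCA was 1.51 (SE 0.54, 95% interval 0.41 to 2.61), which did not pass the test (unadjusted p = 0.0086, edgeR adjusted p = 0.095). With INT-787 it was 0.50 (SE 0.57, interval -0.66 to 1.66, adjusted p = 0.60), and between INT-787 and OCA it was -1.02 (interval -2.07 to 0.04).

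Tff3 passed with OCA in some alternatives, but the filter on low counts limits how these p-values can be read. Tff3 was dropped when only OCA and vehicle mice were filtered and fitted. It entered the main test through the 3 groups filtered together, and the OCA mice, where it was highest, counted toward that filter. No conclusion is drawn from its test with OCA. Without vehicle replicate 8, the highest vehicle mouse, the fold change was 2.18 and passed (adjusted p = 0.013), and that with INT-787 was 1.16 (adjusted p = 0.17; 0.25 to 1.16 when each mouse was left out). Without both vehicle replicates 5 and 6 the value with OCA was 1.36 (adjusted p = 0.16). It was 1.89 with replicate numbers as a block (adjusted p = 0.0091) and 1.28 with sample number sets as a block (adjusted p = 0.08). With every mouse kept and no block, OCA gave 0 calls among the 5 members tested with edgeR, DESeq2, and limma-voom, where edgeR called 6.60% of all tested genes. At an unadjusted p under 0.05 it gave 1 of 5, where 18.5% of all tested genes lay under that value. Tff3 also moved with the sample number in the labels, whose meaning is not given there. In the 18 mice numbered 2040 to 2116 it had a median of 0.323 CPM (0 to 1.57), and in the 10 numbered 2122 to 2309 a median of 1.91 CPM (0.218 to 3.29), a split chosen after the values were seen and given without a test. Within the earlier numbers the medians were 0.246 CPM with vehicle (7 mice, 0 to 0.299), 0.489 with OCA (5 mice, 0.133 to 1.57), and 0.496 with INT-787 (6 mice, 0.224 to 1.08). Within the later numbers the OCA mice had 2.4 to 3.29 CPM (4 mice), the vehicle mice 0.218 to 2.06 (3 mice), and the INT-787 mice 0.492 to 1.77 (3 mice). Within sets of neighbouring numbers Tff3 was lower with OCA than with vehicle in 1 of 8.

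Markers of gut and pancreas were read beside Tff3, which is abundant in intestine. The 10 markers summed to 96.2 to 186.8 CPM with vehicle, 114.8 to 234.4 with OCA, and 118.3 to 233.4 with INT-787, of which most was Fabp2, a fatty acid binding protein that averaged 122, 141, and 157 CPM. Without Fabp2 the other 9 summed to 11.1 to 38.7, 9.78 to 69.4, and 8.34 to 21.6 CPM in the same order, and the defining pancreatic genes Prss1, Try5, and Pnlip were at 0 in every mouse. The 3 that could be tested were Cela1, Fabp2, and Vil1, with log2 fold changes of -0.13, 0.22, and 0.41 with OCA (edgeR adjusted p = 0.63, 0.45, and 0.63). Fabp6, the ileal bile acid binding protein, was too uneven to pass the filter, with 17 of 28 mice at 0, and averaged 4.51 ± 7.70 CPM (SD) in vehicle mice, 8.97 ± 16.1 in OCA mice, and 1.79 ± 3.36 in INT-787 mice. The part of these markers in the Tff3 values was not tested.

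**Figure D3:**
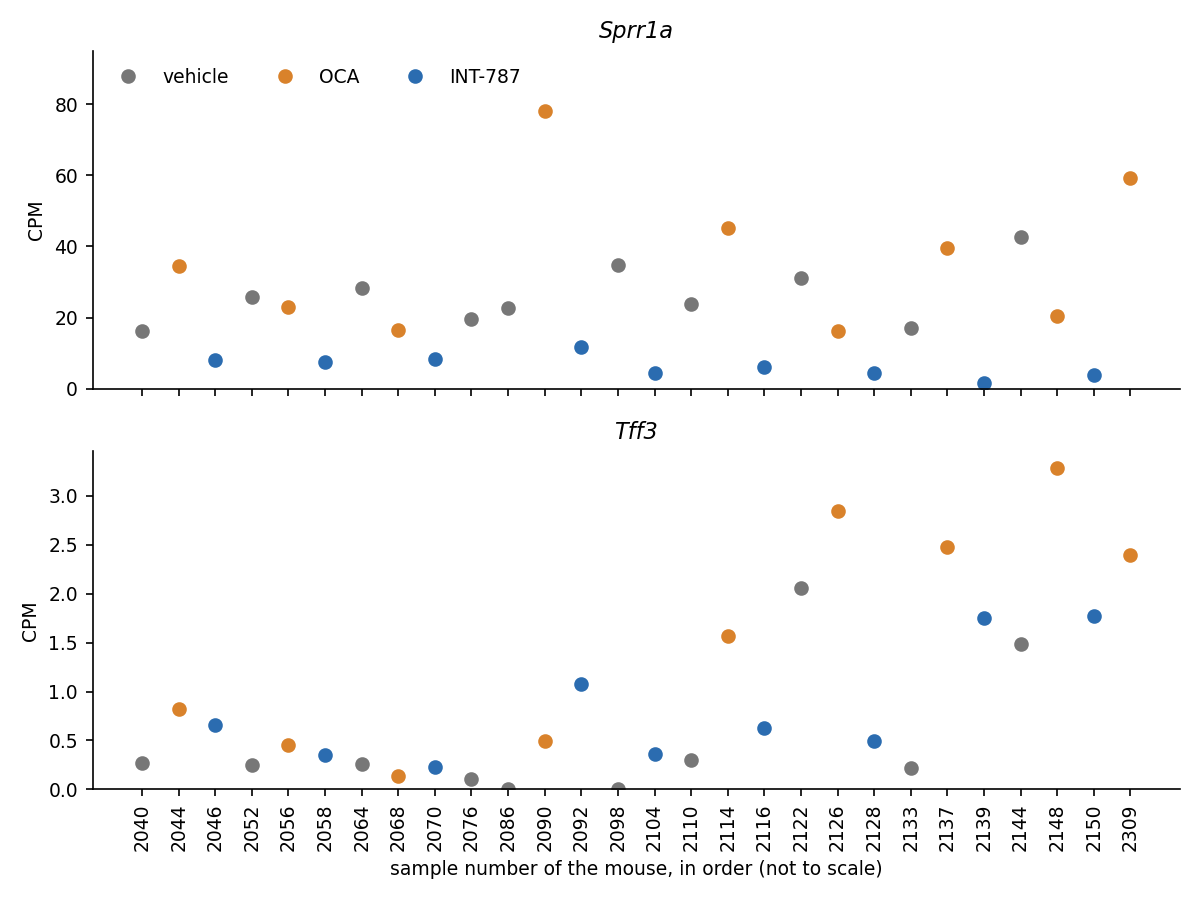
Sprr1a and Tff3 (CPM, linear axes) in each mouse in the order of its sample number, coloured by group. The low Sprr1a values of INT-787 (1.68 to 11.7 CPM) run through the whole order, whereas Tff3 reaches 3.29 CPM in mice numbered 2122 or later and 1.57 CPM in earlier ones.

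Among mucosal genes around Tff3, Tff2, another trefoil peptide, had log2 fold changes of 0.18 with INT-787 and 0.59 with OCA (adjusted p = 0.80 and 0.46), and Tff1 was too low to test. Pigr, the receptor that carries IgA across epithelium into bile, rose with INT-787 (1.14, SE 0.12, adjusted p = 1.6e-08) and with OCA (0.75, SE 0.12, adjusted p = 5.4e-05). It was the 1 call among 7 tested genes of that list with each drug, where 19.6% and 6.60% of all tested genes were called. Its difference between the drugs was 0.39 (adjusted p = 0.056).

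Ly6d (ENSMUSG00000034634, chr15:74762056-74763620, minus strand) was high in every group. The lowest, median, and highest mice had 108, 194, and 234 CPM with vehicle. With OCA they had 127, 199, and 290 CPM. With INT-787 they had 102, 168, and 256 CPM, and the 3 groups overlapped almost fully. The log2 fold change was -0.13 with INT-787 (95% interval -0.43 to 0.18, adjusted p = 0.62) and 0.11 with OCA (interval -0.19 to 0.42, adjusted p = 0.77). Between the drugs it was -0.24 (interval -0.56 to 0.08). Of its relatives, Ly6k rose with INT-787 (2.15, SE 0.56, adjusted p = 0.0062). Its level was low and uneven, at 0.608 ± 0.857 CPM (SD) with vehicle and 1.81 ± 1.66 with INT-787, so the size of the change is uncertain. Ly6e rose with OCA (0.68, SE 0.16, adjusted p = 0.0074), from 777 to 1250 CPM, and had a difference of -0.51 between INT-787 and OCA (adjusted p = 0.073). Gpihbp1, which anchors lipoprotein lipase in capillaries, fell with OCA by 0.43 (adjusted p = 0.047).

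Afp (ENSMUSG00000054932, chr5:90490737-90508907, plus strand) was low in every group. The lowest, median, and highest mice had 0.897, 1.48, and 4.6 CPM with vehicle. With OCA they had 0.196, 1.57, and 3.6 CPM. With INT-787 they had 0.447, 1.08, and 1.88 CPM, with 3 of 9 mice below the lowest vehicle mouse. These levels rest on 2 to 58 counts per mouse. The log2 fold change was -0.47 with INT-787 (95% interval -1.10 to 0.17, adjusted p = 0.32) and -0.01 with OCA (interval -0.65 to 0.63, adjusted p = 1). Between the drugs it was -0.46 (interval -1.09 to 0.17), and -0.21 without OCA replicate 8.

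Of the 3 other genes of the albumin family, Alb and Afm rose with both drugs. Alb, serum albumin, rose with INT-787 (0.45, SE 0.14, adjusted p = 0.025) and with OCA (0.62, SE 0.14, adjusted p = 0.0046). Afm, afamin, rose by 0.51 and 0.53 (adjusted p = 0.00052 and 0.00088), whereas Gc, the vitamin D binding protein, had values of -0.07 and 0.10 (adjusted p = 0.76 and 0.74). Zhx2 and Zbtb20, postnatal repressors of Afp, had log2 fold changes of at most 0.22, and neither passed the test with either drug. Over all tested genes 10.2% rose and 9.48% fell with INT-787, and 4.15% rose and 2.45% fell with OCA. Of 16 genes in this list 4 rose and 1 fell with INT-787, the fall being Foxa1 (-0.39, adjusted p = 0.021), a pioneer factor of liver genes. With OCA 4 rose, among them Nr2f2 (0.48, adjusted p = 0.007), and Nr5a2 rose by 0.28 with each drug (adjusted p = 0.018 and 0.049).

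Gpc3 (ENSMUSG00000055653, chrX:52272426-52613950, minus strand) was the lowest of the 6 per length. The lowest, median, and highest mice had 0.219, 0.841, and 1.84 CPM with vehicle. With OCA they had 0.489, 1.12, and 1.61 CPM. With INT-787 they had 0.349, 0.723, and 1.39 CPM, and all groups overlapped. The log2 fold change was -0.10 with INT-787 (95% interval -0.76 to 0.55, adjusted p = 0.87) and 0.36 with OCA (interval -0.28 to 0.99, adjusted p = 0.62), on 2 to 30 counts per mouse. Between the drugs it was -0.46 (interval -1.09 to 0.17). Counted over the 6 members, the fitted value was below 0 for 5 with INT-787 and 2 with OCA, against 50.2% and 46.2% of all tested genes. It was below 0 for 6 with INT-787 over OCA, the contrast on which Sprr1a was chosen, against 51.4% of all tested genes, and nothing is read from these counts.

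Of 15 tested glypicans, syndecans, and their modifiers, 6 rose and 2 fell with INT-787, where 10.2% and 9.48% of all tested genes did. Notum, the hydrolase that releases glypicans and inactivates Wnt proteins, rose by 1.01 with INT-787 (adjusted p = 5e-05) and 0.61 with OCA (adjusted p = 0.024). Sulf2, which trims sulfate groups from heparan sulfate, rose by 0.78 with INT-787 (adjusted p = 2.7e-05) and was 0.56 higher than with OCA (adjusted p = 0.0074). Gpc6 fell by 0.69 with INT-787 (adjusted p = 0.00068). Gpc4 rose by 0.28 with OCA (adjusted p = 0.016) and was lower with INT-787 than with OCA by 0.28 (adjusted p = 0.025), whereas Gpc1 had values of 0.24 and 0.19 (adjusted p = 0.35 and 0.62). Of 18 oncofetal genes 11 could be tested, and H19 was not analysed here. Igf2, the fetal growth factor, rose with INT-787 (0.85, SE 0.28, adjusted p = 0.03), and Mest fell (-0.68, SE 0.22, adjusted p = 0.03). Spink1, a secreted trypsin inhibitor, rose with OCA (1.37, SE 0.38, adjusted p = 0.022) and was 1.72 lower on the log2 scale with INT-787 than with OCA (SE 0.38, adjusted p = 0.0064). Its level was low and was uneven between OCA mice, at 2.63 ± 2.46 CPM (SD), against 1.1 ± 0.649 with vehicle and 0.809 ± 0.211 with INT-787.

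Genes of injury and of hepatocyte identity gave a wider frame. Of 16 tested genes of the AP-1 and acute injury response, 5 fell with INT-787 and 4 with OCA, where 9.48% and 2.45% of all tested genes did. Cdkn1a, the cell cycle inhibitor p21, fell by 0.78 and 0.79 (adjusted p = 0.00071 and 0.0015), and Hmox1, heme oxygenase, by 0.43 and 0.41 (adjusted p = 0.0097 and 0.035). Lcn2, a secreted marker of liver injury, fell with INT-787 (-1.21, SE 0.24, adjusted p = 0.00038), had a value of 0.35 with OCA (adjusted p = 0.46), and was lower with INT-787 than with OCA by 1.56 (adjusted p = 0.00013). Ier3 fell with INT-787 (-1.21, SE 0.25, adjusted p = 0.00069), as did Fosl2 (-0.40, adjusted p = 0.0014). The AP-1 subunit Jun fell with OCA (-0.55, SE 0.10, adjusted p = 0.00035) and was 0.67 higher with INT-787 than with OCA (adjusted p = 7.2e-05). Gdf15, a stress cytokine, fell with OCA (-0.91, adjusted p = 0.0013) and was 0.63 higher with INT-787 than with OCA (adjusted p = 0.04).

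Of 19 tested hepatocyte identity genes, 8 rose and 1 fell with INT-787, and 6 rose with OCA. Cps1, the entry enzyme of the urea cycle, rose by 0.99 and 0.89 (adjusted p = 2.8e-06 and 4e-05), Tat by 0.75 and 0.61, and Hpd by 0.64 and 0.42, the latter both being enzymes of tyrosine breakdown. The fall with INT-787 was Onecut1 (-1.57, SE 0.42, adjusted p = 0.0071), a hepatobiliary transcription factor. Serpina1c was lower with INT-787 than with OCA by 0.64 (adjusted p = 0.031), a value that is uncertain because near-identical Serpina1 copies can share reads. Of 15 tested genes of the YAP and TEAD pathway, its regulators and their targets, the target Axl fell with INT-787 (-0.59, adjusted p = 0.0008) and was lower than with OCA by 0.53 (adjusted p = 0.01), and Wwtr1, which encodes the YAP relative TAZ, fell with OCA by 0.24 (adjusted p = 0.028). Over the 10 lists, 117 of 164 genes were tested. With INT-787 20 rose and 16 fell (30.8% of those tested), with OCA 16 rose and 8 fell (20.5%), and 8 differed between the drugs (6.84%, where 5.38% of all tested genes did). Over all tested genes 10.2% rose and 9.48% fell with INT-787, 4.15% rose and 2.45% fell with OCA, and with INT-787 over OCA 2.19% were higher and 3.19% lower. The median log2 fold change over the lists was -0.01, 0.06, and -0.04, against -0.001, 0.018, and -0.007 over all tested genes. The lists were made up with results of these data known, and the 2 drug comparisons share the vehicle mice.

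**Figure D4:**
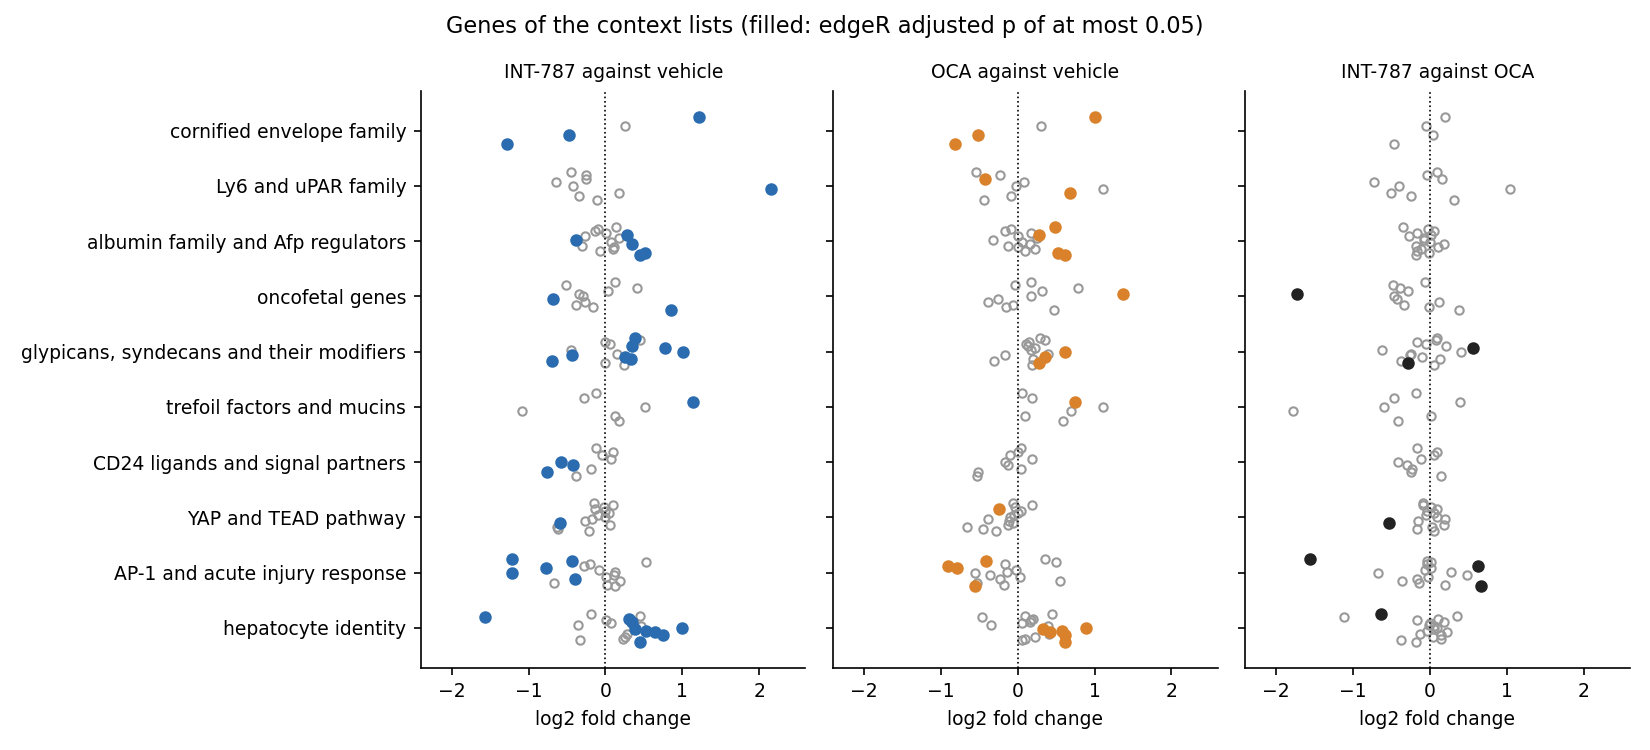
Log2 fold changes of the 117 tested genes in the 10 lists around the 6 genes, in a panel for each drug against vehicle and another for INT-787 over OCA. Each circle is 1 gene, filled where the edgeR adjusted p was at most 0.05: 36, 24, and 8 circles are filled.

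Within groups, the 6 genes did not vary as 1 block. After the group mean was removed from log2 CPM, Pearson's r over the 28 mice was 0.56 for Sprr1a and Ly6d (permutation p = 0.0041, adjusted over 15 pairs 0.061; Spearman's rho 0.53, adjusted permutation p = 0.06). It was 0.53, 0.74, and 0.42 within the vehicle, OCA, and INT-787 groups, and 0.47 over the mice left when the 2 farthest from the median of Sprr1a were omitted. Afp and Cd24a had an r of 0.51 (permutation p = 0.021, adjusted 0.16; rho 0.50, adjusted permutation p = 0.06), with 0.53 when 2 mice were omitted. Afp and Gpc3 had an r of 0.41 (permutation p = 0.031, adjusted 0.16; rho 0.32, adjusted permutation p = 0.45), which dropped to 0.21 without 2 mice. Of the 15 pairs, 0 passed an adjusted p of 0.05 and 3 had an unadjusted p under 0.05.

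**Figure D5:**
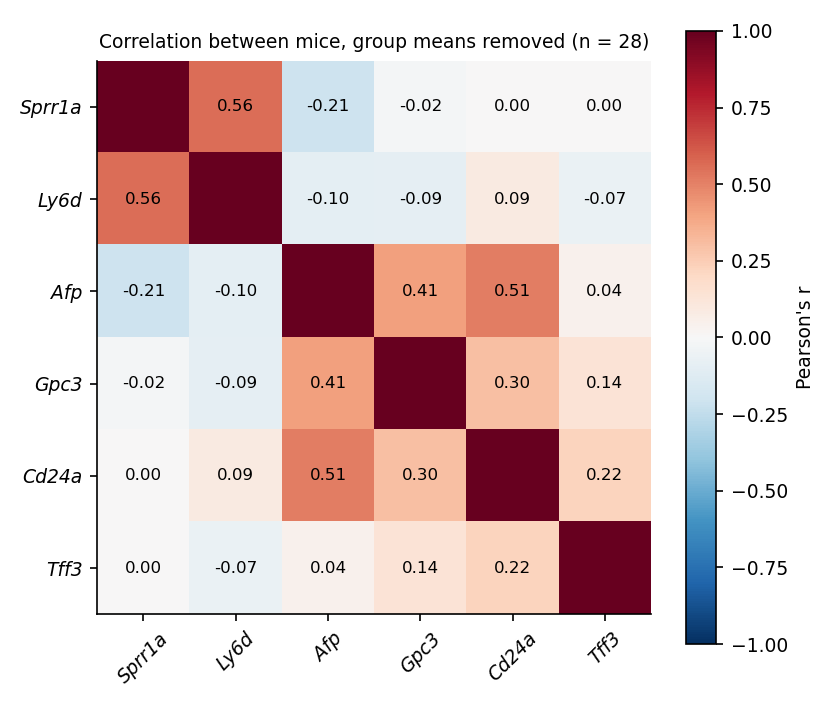
Pearson's r between each pair of the 6 genes over 28 mice, from log2 CPM with group means removed. The highest values are 0.56 (Sprr1a and Ly6d), 0.51 (Afp and Cd24a), and 0.41 (Afp and Gpc3), and Tff3 has none above 0.22.

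The genes whose levels followed each member most closely between mice of a group were ranked by the same r over 28 mice, among 11940 or 11941 tested genes with a mean of at least 1 CPM. For Cd24a they were Emp1 (r = 0.91), Bicc1 (0.89), and Egflam (0.87). For Ly6d they included Fam20a (0.81) and Spon2 (0.81). For Tff3 they were Krt20 (0.79), Vil1 (0.73), and Smim24 (0.72), and for Afp Cdan1 (0.79), Susd4 (0.77), and Mboat1 (0.74). For Sprr1a they were Maged1, Cyb5r3, and Ap1b1 (0.71 each), and for Gpc3 Tmem45b (0.69), Clba1 (0.68), and Agpat1 (0.66). Without the 2 mice farthest from the median of the member, r ranged from 0.49 to 0.86 over these genes. It was lowest for Mboat1 with Afp (0.49, Spearman's rho 0.44) and for Agpat1 with Gpc3 (0.54, rho 0.5). These values are the highest of many and share the mice and their library depth, so they are a description without a p. Emp1 had a difference of -0.91 between INT-787 and OCA (adjusted p = 0.019), and Maged1 one of -0.50 (adjusted p = 0.00015), and Maged1 fell with INT-787 by 0.34 (adjusted p = 0.0018).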

How the data were processed

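Messenger RNA of 28 mouse livers was sequenced from stranded libraries. The authors aligned reads to GRCm38 (Ensembl release 89) with STAR 2.5.2a and deposited raw counts, whole numbers of reads per Ensembl gene and mouse with no normalization. The counting program and its use of strand are not given in the sources used here. Groups came from the sample titles. The table had 0 columns of other samples.

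Genes were kept by filterByExpr, normalized with TMM, and tested with the quasi-likelihood test of edgeR 4.0.16 (R 4.3.3) over the 3 groups, with Benjamini-Hochberg adjustment over 12580 genes and a threshold of 0.05. The script was tested on simulated data. CPM used TMM-scaled totals, except for the genes covered on the opposite strand and the limits for counts of 0, which used raw totals. Correlations used 100000 permutations within groups. Alternatives were DESeq2 1.42.0, limma 3.58.1, other normalizations and filters, blocks, and each mouse left out. Libraries were separate mice; intervals cover the spread between them.

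Members and lists were chosen with earlier results of these data known. Named were the members, their 3 most alike genes, near relatives, and up to 4 called genes per list and comparison with the largest change and at least 1 CPM. Promoters came from RefSeq, and gene coordinates from GENCODE. A few genes that this rule names are not reported here.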

Additional observations from a re-analysis of the deposited data

Results flagged for a closer look

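Among 18 groups, 1 for each of the 6 genes and 3 treatments, the highest mouse passed Dixon's outlier test in 2. Chance alone marks about 1 group in 20 where values are normally distributed, which was not tested here. Afp in vehicle replicate 6 was 4.6 CPM, with the next mouse at 2.29 CPM. This value rests on 5 counts in the library with the lowest total. Cd24a in OCA replicate 8 was 67.9 CPM on 1095 counts, with the next mouse at 42.0 CPM. For this OCA replicate 8 value the gap was 0.499 of the group's range, only just past the critical value of 0.493. The same mouse held the highest OCA sums in 7 of 11 marker lists (cholangiocyte, stellate and fibroblast, dividing cell, B cell and plasmacytoid dendritic cell, neutrophil, erythroid, and mesothelial), and their part in the Cd24a value was not tested.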

How the results depend on the processing

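The direction of Sprr1a held in the 3 comparisons under each alternative, with a log2 fold change of 0.23 to 0.61 for OCA against vehicle. The number of members called with INT-787 (1, Cd24a) ranged from 0 to 1 when each mouse was left out, and was 0 at an adjusted p of at most 0.01 and 0 without both vehicle replicates 5 and 6, an alternative chosen after seeing the data. Over all alternatives the fold change of Cd24a was -0.63 to -0.46 with an adjusted p of 0.0043 to 0.11. The number called with OCA (0) ranged from 0 to 1 when each mouse was left out; Tff3 had a fold change of 1.28 to 2.18 and an adjusted p of 0.0091 to 0.18. The direction of Afp with OCA reversed to 0.07 with sample number sets in the model and 0.05 without both vehicle replicates 5 and 6, with a range of -0.26 to 0.12 when each mouse was left out, and that of Gpc3 with INT-787 ranged from -0.26 to 0.04. The members lower with INT-787 than with OCA went from 6 to 3 under a minimum of 10 counts in every mouse, since 3 members pass that filter. At an adjusted p of at most 0.01, all genes called numbered 1334 for INT-787, 435 for OCA, and 247 for their difference, against 2469, 830, and 677, and genes of the lists were 14 with OCA and 4 between the drugs. Between the drugs, list genes numbered 13 with DESeq2 and 5 to 11 when each mouse was left out (5 without INT-787 replicate 3), and all genes 443 to 888 (443 without OCA replicate 8). For these changes the cause was not tested. Upper-quartile normalization moved the share of called genes that were higher from 51.7% to 37.5% (INT-787), from 62.9% to 52.3% (OCA), and from 40.8% to 32.2% (INT-787 over OCA).

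Whether replicate numbers paired the mice was left undecided, since pairs with unlike numbers were not measured. Of 27 pairs with the same number, 11 had deviations correlated above 0.1 (-0.244 to 0.429, median 0.0772). Among the 9 pairs of replicates 1 to 3, 8 did. Of the pairs within sample number sets, 13 of 25 did (median 0.105). With the replicate block, 1 member was called with OCA, Tff3 (1.89, adjusted p = 0.0091; 1.28, adjusted p = 0.08 with sample number sets as the block), and 1 of the 15 gene pairs passed, Sprr1a and Ly6d (r = 0.64, permutation adjusted p = 0.0066), in place of 0. Counts of 2 to 58 per mouse limit Afp, and 2 to 30 Gpc3.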
